A study of Mus musculus with 9 samples.

Results

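Newborn neurons were compared with proliferating progenitors, the last and the first stage of 3 that were sorted from embryonic mouse cortex (strain C57BL/6, embryonic day 14.5, lateral cortex only). The comparison used 6 of the 9 small RNA libraries of the series, 3 from each population. Proliferating progenitors are titled as cells with neither of a pair of endogenous fluorescent reporters, named R and G, and newborn neurons as cells with G. The other 3 libraries, from differentiating progenitors with R and without G, entered only the estimate of the spread. The labels name no promoter for either reporter, so the progenitor gate is known here only as the absence of both signals. They also do not say whether the libraries of a population came from separate embryos, litters or sorts, and the p-values then measure only the spread between these samples. Meninges, ganglionic eminences and olfactory bulb had been removed before the cells were dissociated with papain and sorted. The table counts miRNAs only, so the populations could be checked against marker miRNAs but not against marker mRNAs.

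All 1211 rows of the count table with a database identifier were used. Keeping the row with the largest total for each mature name gave 1059 names, and joining names with near-equal counts gave 1052 miRNAs, of which 560 had a count in the 9 libraries. The table names 925 of these rows as 5p arms and 114 as 3p arms, so most hairpins are seen through their 5p arm.

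A miRNA is a short RNA that guides Argonaute proteins to messenger RNAs, which are then repressed. Target choice rests mainly on the seed, the bases near the 5′ end of the miRNA, and miRNAs with the same seed are grouped into a family because they can bind many of the same messages. In the developing cortex, dividing radial glia and basal progenitors produce neurons, and miR-9, let-7 and miR-124 are among the miRNAs long studied in this step.

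Here a seed family is the set of miRNAs with the same bases 2 to 8. RefSeq mature sequences (GRCm38.p6) were matched to 892 of the 1052 miRNAs. They covered between 98.2% and 98.7% of the counts of a library and held 754 distinct seeds. A miRNA without a matched sequence was kept as a feature of its own. The sequences below are those on which the results turn, 5′ to 3′, with the seed in capitals. The miR-7 pair gained most of the pool.

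miR-7a-5p: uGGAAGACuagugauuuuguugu

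miR-7b-5p: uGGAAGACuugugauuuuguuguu

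miR-9-5p dominated every library, and the miR-99/100 family lost the most after it.

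miR-9-5p: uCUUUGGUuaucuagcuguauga

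miR-99a-5p: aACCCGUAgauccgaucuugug

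miR-99b-5p: cACCCGUAgaaccgaccuugcg

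miR-100-5p: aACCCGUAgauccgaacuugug

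The let-7 family was the largest after miR-9, and let-7j and let-7i-5p differ in a seed base.

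let-7f-5p: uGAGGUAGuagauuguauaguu

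let-7i-5p: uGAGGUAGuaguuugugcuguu

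let-7j: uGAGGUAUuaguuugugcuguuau

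In the miR-449, miR-146, miR-148 and miR-128 pairs the seed is shared, but the members' changes were far apart.

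miR-449a-5p: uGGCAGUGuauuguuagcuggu

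miR-449c-5p: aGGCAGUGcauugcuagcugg

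miR-146a-5p: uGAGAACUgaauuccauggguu

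miR-146b-5p: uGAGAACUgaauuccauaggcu

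miR-148a-5p: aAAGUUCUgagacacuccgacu

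miR-148b-5p: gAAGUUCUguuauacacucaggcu

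miR-128-1-5p: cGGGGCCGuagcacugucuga

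miR-128-2-5p: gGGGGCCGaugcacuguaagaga

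The miR-378c and miR-378d sequences carry different seeds under a shared name, and both fell.

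miR-378c: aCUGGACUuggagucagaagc

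miR-378d: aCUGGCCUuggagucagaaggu

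Counts per library ranged from 821155 to 1323826 in the progenitors and from 1067320 to 3856484 in the neurons, and these totals overlapped between the populations. Neuron replicate 3 stood somewhat apart, with a TMM factor of 1.22 (0.903 to 1.01 in the other 5 libraries) and the lowest share of miR-9-5p. A count of 0 allows up to 3.65 CPM (counts scaled to a library of 1000000) in the shallowest library. Correlations of log values over the tested miRNAs were between 0.983 and 0.994 for libraries of the same population and between 0.885 and 0.904 for libraries of different populations. In bulk RNA of sorted cells, fewer cells of a type and less RNA per cell cannot be told apart, and each value below is a level relative to the other miRNAs of its library.

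Of 188 miRNAs with enough counts to be tested, 106 (56.4%) differed between the populations at an adjusted p under 0.05 (edgeR's quasi-likelihood test, Benjamini-Hochberg adjustment), and are named called below. The 56 miRNAs that rose in neurons were 29.8% of those tested, and the 50 that fell were 26.6%. In 121 miRNAs (64.4%) the scaled values of the 3 neuron libraries did not overlap those of the 3 progenitor libraries. Differences were of at least 2-fold in 44 of the miRNAs that rose and in 32 of those that fell. The median log2 change of all tested miRNAs was -0.05. Scaling by library totals in place of TMM factors moved this median to 0.13, and changes near 0 are read against that shift.

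Most of the abundant miRNAs changed little. Among the 36 tested miRNAs with a mean of at least 1000 CPM over the 9 libraries, 5 rose and 7 fell, and 3 of these, miR-7a-5p, miR-541-5p and miR-100-5p, did so by at least 2-fold. Their median absolute log2 change was 0.24. Among the 152 below that level, 73 were called at 2-fold or more, and the median absolute log2 change was 0.92, on values with larger errors.

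**Figure D1:**
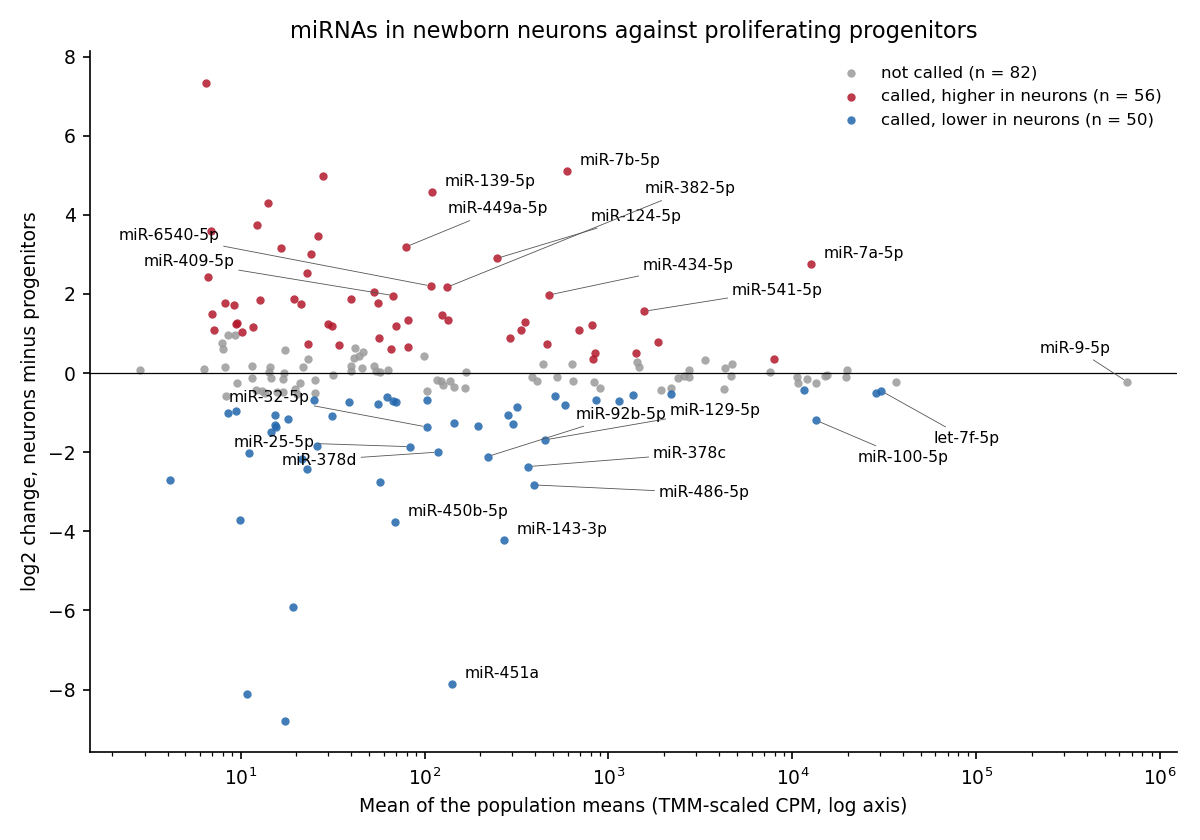
Each point is a tested miRNA, placed by the mean of the population means (TMM-scaled CPM, log axis) and by its fitted log2 change, neurons minus progenitors; red and blue mark those called higher (56) and lower (50). miR-7a-5p (2.76) stands above the other miRNAs on the abundant side, and miR-451a (-7.86) is the lowest of the labelled points.

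The pool of counts was then followed across seed families. Comparing mean shares, 4.42% of all counts sat in a different seed family in neurons than in progenitors, and 297 families gained share while 180 lost it. The miR-7 family took 49.4% of all gains, and the 3 families gaining most, miR-7, miR-181 and miR-30, took 66.3%. The miR-30 family here leaves out miR-30b-5p and miR-30d-5p, which had no matched sequence. On the other side, miR-9 supplied 44.4% of all losses, and miR-9 with miR-99/100 supplied 76.3%. With single miRNAs in place of families, the pool moved between seed families of 4.42% became 5.17%.

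Over all counts, the distance between libraries of different populations was close to that between neuron libraries. The measure was applied here to pairs of single libraries, which vary more than the mean shares compared above. Pairs of progenitor libraries were 1.02% to 3.05% apart, pairs of neuron libraries 2.48% to 6.10%, and pairs across the populations 3.86% to 8.70%. The ranges within neurons and between the populations therefore overlapped. Over the counts left without miR-9-5p, 11.3% changed family when mean shares were compared. Pairs within progenitors were then 2.01% to 3.32% apart, pairs within neurons 4.85% to 8.48%, and pairs across the populations 11.1% to 13.2%, with no overlap.

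**Figure D2:**
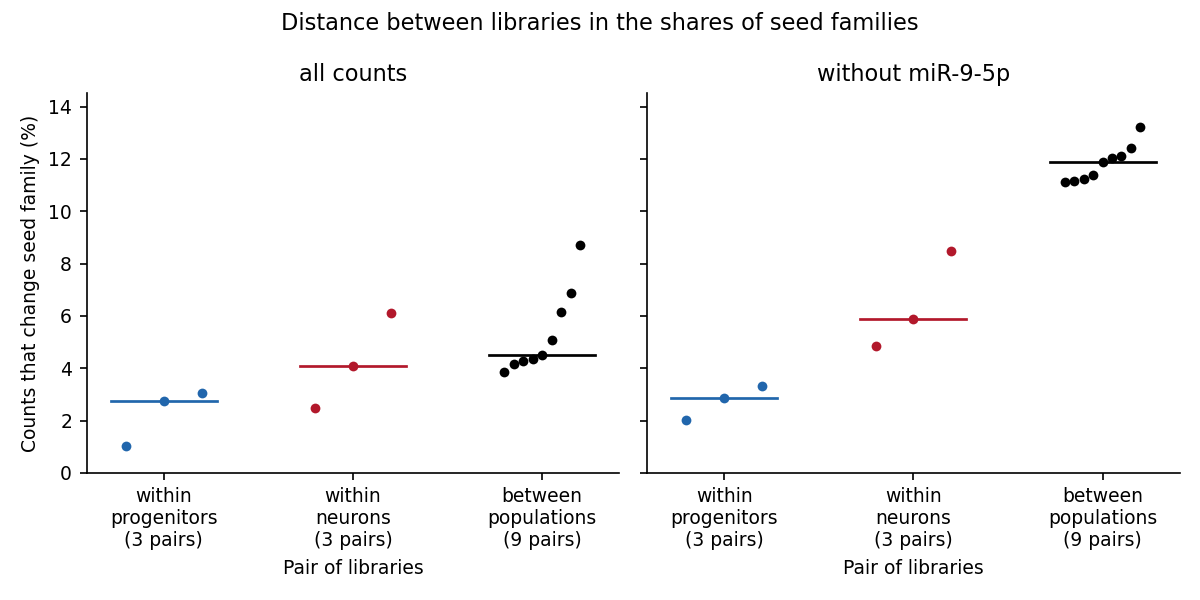
Percentage of counts in different seed families for each pair of libraries, over all counts (left) and without miR-9-5p (right); points are pairs and lines are medians. The 9 pairs across populations lie above all pairs within a population only on the right, where their median is 11.9%.

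Of 153 seed families tested, 96 (62.7%) were called in edgeR's quasi-likelihood test, 53 (34.6%) higher and 43 (28.1%) lower in neurons. With upper-quartile scaling, 67.7% of the called families were higher, against 55.2% with TMM factors. A single tested miRNA made up 136 of the 153 families, so most family results are those of 1 miRNA. The 53 families that rose held 1.01%, 0.972% and 1.12% of the counts in the progenitor libraries and 4.23%, 3.87% and 4.54% in the neuron libraries. Without miR-9, the families that fell held 7.69%, 7.99% and 7.59% in progenitors and 5.79%, 6.15% and 5.36% in neurons. These sums were formed from the calls themselves and carry no test. Families that were not called or not tested held 23.9% ± 1.43 in progenitors and 24.7% ± 2.45 in neurons (SD, n = 3 libraries in each).

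The miR-7 family showed the largest gain. Its share of the counts was 0.287%, 0.282% and 0.361% in progenitor libraries 1 to 3 and 2.63%, 2.20% and 2.65% in neuron libraries 1 to 3. Every neuron library was above every progenitor library, and counting error was small beside this gap: in the shallowest library of each population the 95% Wilson intervals were 0.349% to 0.375% and 2.62% to 2.68%. The mean share went from 0.310% ± 0.0445 to 2.49% ± 0.257 (SD, n = 3), a gain of 2.18 percentage points. The family's log2 change was 2.81 (SE 0.14, edgeR adjusted p = 2.05e-10). Without miR-9-5p in the total, miR-7 held 0.953% ± 0.183 of progenitor counts and 7.18% ± 0.516 of neuron counts.

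Both members of the family rose, miR-7b-5p by the larger factor. miR-7a-5p, which in mouse lies in an intron of Hnrnpk (chr13:58392841-58392863, minus strand, GRCm38) and at a further locus on chromosome 7, measured 2845, 3087 and 3852 CPM in progenitors and 24861, 20650 and 20616 CPM in neurons. Its lowest neuron library was far above its highest progenitor library, and the fold change was 6.76 (log2 2.76, SE 0.15, edgeR adjusted p = 1.01e-10). miR-7b-5p (chr17:56243017-56243040) measured 37.9, 30.7 and 31.4 CPM in progenitors and 1279, 1113 and 1084 CPM in neurons. All 3 neuron libraries were far above the progenitor range, a change of 34.4-fold (log2 5.10, SE 0.21, edgeR adjusted p = 3.85e-12).

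The mature forms differ by 1 substitution, A10U counted from the 5′ end of miR-7a-5p, and by 1 added base. How the counting treated reads that fit both was not given in the sources used here. Counts of miR-7b-5p were 0.815% to 1.33% of those of miR-7a-5p in the progenitor libraries and 5.15% to 5.39% in the neuron libraries, so the ratio itself differed between the populations without overlap.

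The other 5 of the 6 called families with the largest gains were of 1 miRNA each. miR-541-5p, from the imprinted miRNA cluster on chromosome 12, held 0.0689%, 0.0665% and 0.0889% of the counts in progenitors and 0.227%, 0.232% and 0.302% in neurons. It followed miR-7 with a gain of 0.179 percentage points (log2 1.56, SE 0.15, edgeR adjusted p = 4.42e-07). miR-532-5p, an X-linked miRNA, went from 0.130%, 0.126% and 0.129% to 0.226%, 0.281% and 0.242%, with no overlap. miR-379-5p and miR-434-5p, from the same imprinted cluster as miR-541-5p, gained 0.0764 and 0.0626 points. miR-218-5p, whose copies lie in introns of Slit2 and Slit3, held 0.119%, 0.105% and 0.108% in progenitors and 0.197%, 0.177% and 0.156% in neurons. Its call was lost without neuron replicate 1, for the family (edgeR adjusted p = 0.0741) and for the miRNA (edgeR adjusted p = 0.104), the highest values over 15 alternatives that began at 0.000567 and 0.00207.

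The miR-181 and miR-30 families gained more share than any of these 5, but neither family was called. miR-181 had shares of 1.43%, 1.38% and 1.28% in progenitors and 1.55%, 1.54% and 2.16% in neurons, with neuron replicate 3 well above the other 2. Its log2 change was 0.15 (SE 0.11, edgeR adjusted p = 0.232), and scaling by upper quartile or by library totals brought it past the threshold (adjusted p = 0.00996 and 0.0162, in a range up to 0.704 over 15 alternatives). The miR-30 family, made of miR-30a-5p, miR-30c-5p, miR-30e-5p and miR-384-5p, had a log2 change of 0.02 (SE 0.11, edgeR adjusted p = 0.897). miR-30b-5p and miR-30d-5p had no matched sequence, so the family and its gain leave them out. As a feature of its own, miR-30d-5p held on average 1.03% of progenitor counts and 1.09% of neuron counts, and was not called.

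miR-9-5p, made from 3 loci in mouse and abundant in neural progenitors, held 66.2%, 66.7% and 69.0% of the counts in progenitors and 66.0%, 67.3% and 62.7% in neurons. The populations overlapped, and the exact two-sided permutation test of the shares gave p = 0.4, where 3 libraries against 3 cannot go below 0.1. The mean change of -1.96 percentage points was the largest loss of any family. As a family its log2 change of -0.24 (SE 0.09) passed the threshold in edgeR (adjusted p = 0.0317), and as a single miRNA with the same counts it did not (log2 -0.22, SE 0.11, edgeR adjusted p = 0.101). The family's call held in few alternatives: it was lost in 11 and changed sign with upper-quartile scaling (log2 0.066), with adjusted p between 0.0320 and 0.792.

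The share of the miR-99/100 family changed by -1.41 percentage points. The changes of its members were -0.893 points for miR-100-5p, -0.638 for miR-99a-5p and 0.120 for miR-99b-5p. The family held 6.27%, 6.65% and 6.20% of the counts in progenitors and 5.00%, 5.40% and 4.50% in neurons, without overlap. Its log2 change was -0.55 (SE 0.12, edgeR adjusted p = 0.000833), which missed the threshold with upper-quartile scaling (adjusted p = 0.242, against 0.000935 at the lowest of 15 alternatives). miR-100-5p measured 16732, 20598 and 18860 CPM in progenitors and 9012, 9406 and 6138 CPM in neurons, a fall of 2.29-fold (log2 -1.19, SE 0.16, edgeR adjusted p = 9.79e-06). miR-99a-5p, from an intron of Mir99ahg on chromosome 16, measured 32158, 37369 and 31015 CPM against 24919, 28652 and 17632 CPM. It also did not overlap, but its change was smaller (log2 -0.50, SE 0.16, edgeR adjusted p = 0.0118) and missed the threshold in DESeq2 (adjusted p = 0.0952; the lowest of 15 alternatives gave 0.00449). miR-99b-5p, from an intron of Spaca6 on chromosome 17, had a log2 change of -0.07 (SE 0.13, edgeR adjusted p = 0.667), which turned positive (0.11) with library totals. miR-99a-5p and miR-100-5p differ by 1 substitution, U16A, and counts of miR-100-5p were 52.0% to 60.8% of those of miR-99a-5p in progenitors and 32.8% to 36.2% in neurons.

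The let-7 family, regulators of developmental timing, changed little as a whole. It held 13.5%, 13.3% and 11.8% of the counts in progenitors and 12.3%, 11.2% and 14.3% in neurons, with a log2 change of -0.23 (SE 0.10, edgeR adjusted p = 0.0528). The shares overlapped, and the family passed the threshold with RLE size factors (adjusted p = 0.0182) and without neuron replicate 3 (0.0323), in a range up to 0.799 over 15 alternatives. let-7f-5p measured 35132, 37541 and 32906 CPM in progenitors and 27587, 24975 and 24617 CPM in neurons, and fell (log2 -0.45, SE 0.11, edgeR adjusted p = 0.00248). let-7a-5p fell by 0.42 (SE 0.14, edgeR adjusted p = 0.0205), a call lost in 5 alternatives, from 0.00252 at the lowest to 0.268 with library totals. let-7i-5p (-0.23), let-7c-5p (-0.11) and let-7g-5p (0.09) did not pass the test. Of the 10 tested miRNAs of the let-7 list, 3 fell and none rose in edgeR at an adjusted p under 0.05, a share near the 26.6% of all tested miRNAs that fell. Their median log2 change was -0.23, and 2 were above 0 with TMM factors and 4 with library totals.

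let-7j, which has a seed of its own, changed by -0.0528 percentage points (0.244%, 0.249% and 0.236% against 0.196%, 0.184% and 0.191%). Its log2 change as a family was -0.55 (SE 0.12, edgeR adjusted p = 0.000631), and the call was lost with upper-quartile scaling (adjusted p = 0.194) and without a filter on low counts (0.0882), from 0.000674 at the lowest of 15 alternatives. Its sequence is that of let-7i-5p with the substitution G8U and a longer 3′ end. Its counts were 6.36% to 6.60% of those of let-7i-5p in progenitors and 5.06% to 5.57% in neurons. Whether reads of let-7i-5p were counted there was not tested, so let-7j is uncertain.

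The remaining called losses of share were small and steep. The change in share was -0.0546 points for miR-486-5p, -0.0459 for miR-143-3p and -0.0449 for the family of miR-378c, and each was at least 4-fold lower in neurons. Their values are given below beside the markers of other cells.

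**Figure D3:**
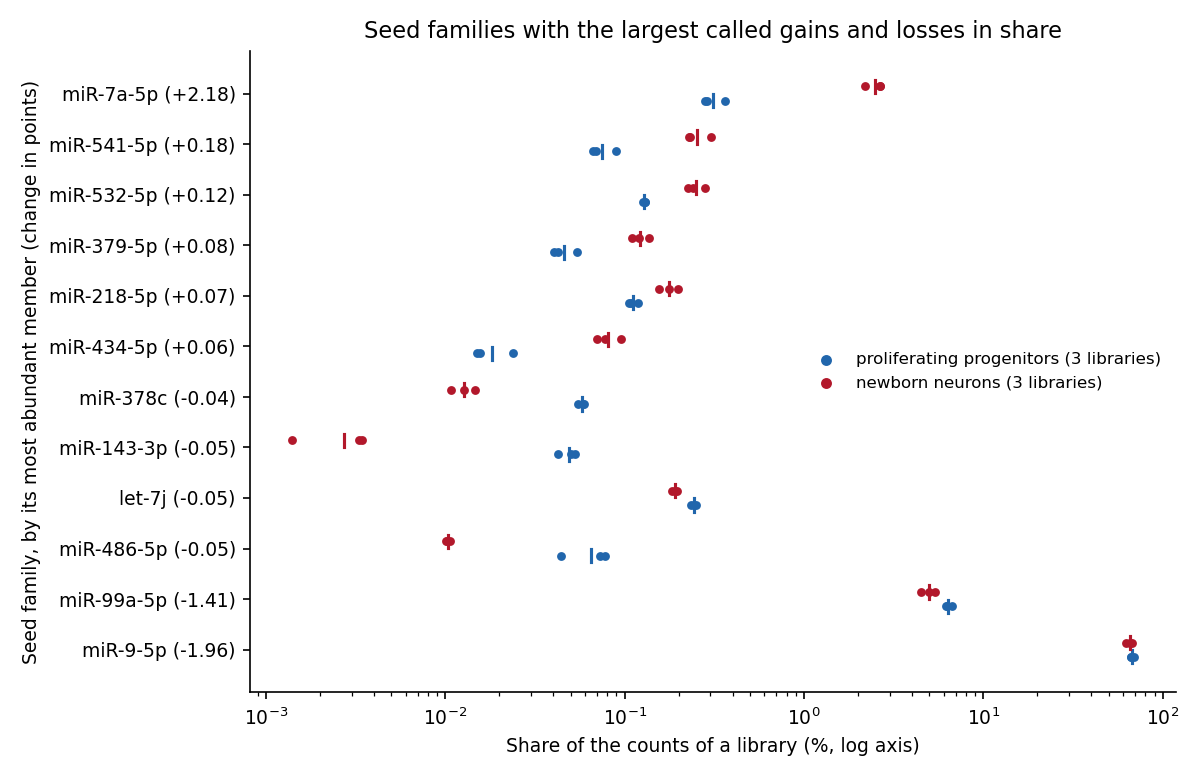
Share of the counts of a library (%, log axis) held by the 6 called seed families with the largest gain and the 6 with the largest loss; points are libraries, bars are means, and the change in percentage points stands in brackets. The miR-7 points move from about 0.3% to above 2%, while those of miR-9 overlap between the populations.

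Members of a seed family often changed by different amounts. In 16 families with at least 2 tested members, the median range of the members' log2 changes was 0.87, and in 10 of them all members lay on one side of 0. At least 2 members were called in 6 families, and in 5 of these in 1 direction. The exception was the miR-146 family, known for its part in innate immune signalling. miR-146b-5p measured 305, 398 and 348 CPM in progenitors and 610, 689 and 437 CPM in neurons, and rose (log2 0.73, SE 0.19, edgeR adjusted p = 0.00278). miR-146a-5p, which is also on the haematopoietic marker list below, had 5, 12 and 4 counts in progenitors and 3, 2 and 2 in neurons, at least 3.80-fold lower (floor of 3 counts in each neuron library; edgeR adjusted p = 0.00101). The family followed its abundant member (log2 0.69, edgeR adjusted p = 0.00273).

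In 3 further pairs 1 member carried the change. miR-449a-5p, from an intron of Cdc20b on chromosome 13 and known from multiciliated cells, measured 12.9, 26.6 and 6.55 CPM in progenitors and 141, 149 and 141 CPM in neurons. It rose 9.14-fold (log2 3.19, SE 0.31, edgeR adjusted p = 1.89e-07), while its neighbour miR-449c-5p had a log2 change of 0.08 (edgeR adjusted p = 0.908). miR-34a-5p and miR-34b-5p were summed into the same seed family but had too few counts to be tested alone. miR-34c-5p had no matched sequence, was a feature of its own and was not called (log2 0.07, edgeR adjusted p = 0.775). miR-148a-5p fell from 102, 94.0 and 102 CPM to 10.6, 21.1 and 13.1 CPM (log2 -2.77, SE 0.28, edgeR adjusted p = 3.74e-07), and miR-148b-5p had a log2 change of -0.04 (edgeR adjusted p = 0.904). miR-128-2-5p had 2, 3 and 0 counts in progenitors and 59, 66 and 25 in neurons, at least 8.50-fold higher (edgeR adjusted p = 0.000127), against a log2 change of 0.14 for miR-128-1-5p (edgeR adjusted p = 0.736). The difference between members was not tested.

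**Figure D4:**
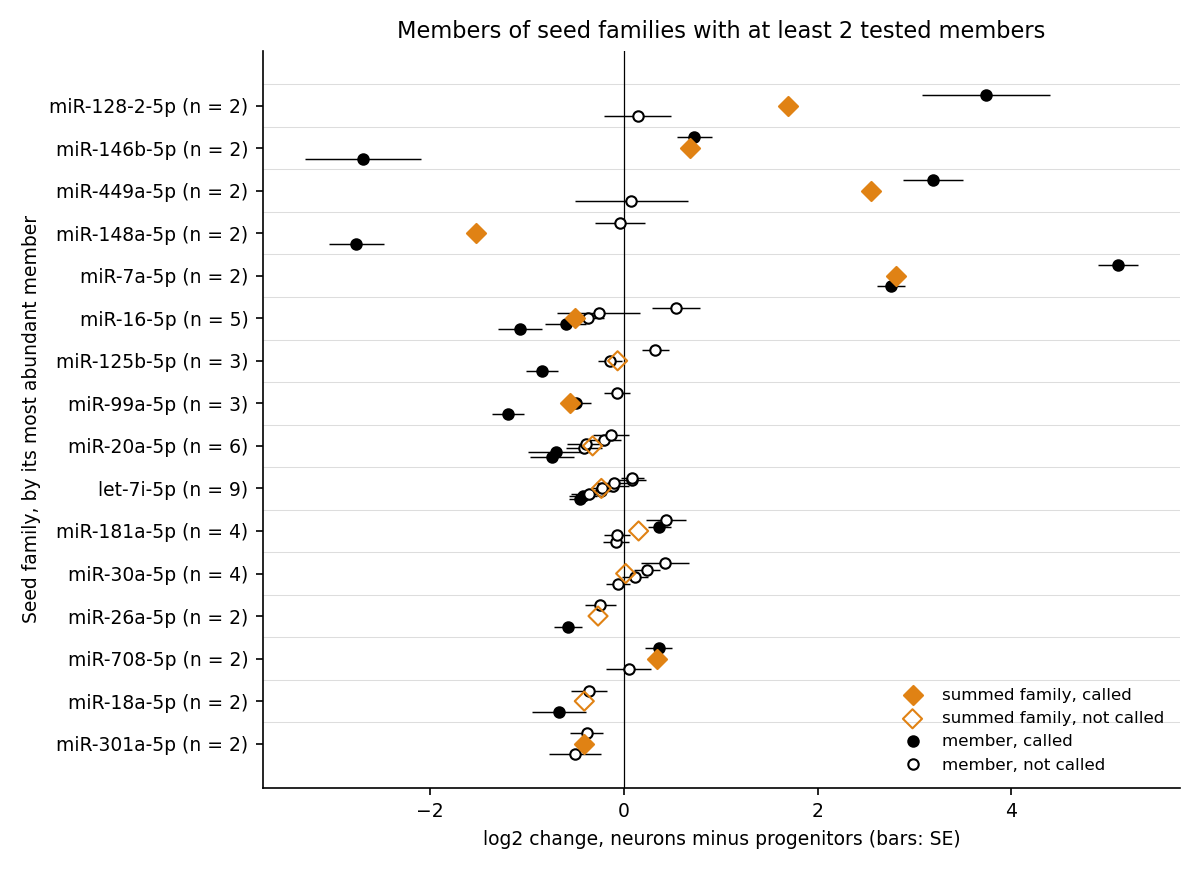
Log2 change, neurons minus progenitors, of each tested member (circles, bars are SE) and of the summed family (diamonds) for the 16 seed families with at least 2 tested members; filled symbols are called. The miR-146 pair lies on both sides of 0, and in the miR-449, miR-148 and miR-128 pairs 1 member lies near 0.

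Among miRNAs known for roles in neurons, the neuronal list of miR-124, miR-128, miR-129, miR-132, miR-137, miR-138, miR-153, miR-212 and miR-218 had 8 tested members. Of these, 6 rose and 1 fell, where 29.8% of all tested miRNAs rose and 26.6% fell. miR-128-2-5p and miR-132-5p, both among the 6, had at most 3 counts in each progenitor library. miR-212-5p and miR-138-5p, also among the 6, had at most 4 and at most 6. All of these entered the test through libraries where they are higher. The median log2 change of the 8 was 2.14 (1.98 with members at 0 or near it set to their bound), against -0.05 over all tested miRNAs. miR-124 is the most widely studied neuronal miRNA, and its 5p arm, the passenger strand, measured 52.3, 82.8 and 38.0 CPM in progenitors and 317, 484 and 503 CPM in neurons. The lowest neuron library was well above the highest progenitor library, a 7.45-fold rise (log2 2.90, SE 0.33, edgeR adjusted p = 1.01e-06). The 3p arm, which carries most miR-124 activity, was not analysed here.

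miR-132-5p and miR-212-5p, neighbours on chromosome 11 known as activity-regulated miRNAs, both rose, the former by at least 4.28-fold (edgeR adjusted p = 0.000311) and the latter with a log2 change of 3.15 (SE 0.43, edgeR adjusted p = 7.55e-06). miR-138-5p, a regulator of dendritic spines, rose by 1.85 (SE 0.38, edgeR adjusted p = 0.000556). miR-129-5p was the member that fell. It measured 594, 708 and 764 CPM in progenitors and 208, 253 and 178 CPM in neurons, without overlap (log2 -1.69, SE 0.19, edgeR adjusted p = 7.92e-07). miR-137-5p and miR-153-5p had too few counts to be tested. The list includes miR-218-5p, whose call rests on neuron replicate 1 as given above.

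miR-139-5p, from an intron of Pde2a on chromosome 7, was nearly absent from progenitors (3.03, 14.3 and 10.5 CPM) and measured 236, 211 and 181 CPM in neurons. Its rise of 23.9-fold (log2 4.58, SE 0.34, edgeR adjusted p = 7.90e-09) was exceeded only by that of miR-7b-5p among the called miRNAs that reached 100 CPM in either population. miR-6540-5p rose from 32.6, 46.0 and 38.0 CPM to 195, 145 and 194 CPM (log2 2.20, SE 0.26, edgeR adjusted p = 2.14e-06). The miR-181 list gave 1 rise in 4 tested members, no more than the 29.8% of all tested miRNAs. It was miR-181a-5p, from 7103, 7407 and 6448 CPM to 9031, 8401 and 9568 CPM. This small change (log2 0.37, SE 0.12, edgeR adjusted p = 0.0140) missed the threshold without progenitor replicate 3 (adjusted p = 0.0813), the highest of 15 alternatives that began at 6.16e-05.

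The largest group that moved together was the imprinted miRNA cluster of the Dlk1-Dio3 region on chromosome 12, which is expressed from the maternal chromosome and enriched in brain. It had 50 rows, 45 with a count and 22 tested. Of the tested members 19 rose and none fell in edgeR, where 29.8% of all tested miRNAs rose and 26.6% fell. The median log2 change was 1.53, against -0.05 over all tested. All 22 had a log2 change above 0 under each scaling tried. The summed level was 1816 to 2503 CPM in progenitors and 5763 to 6001 CPM in neurons. Those that did not pass were miR-299-3p (0.58), miR-431-5p (0.77) and miR-673-5p (0.96). Among the 22, miR-370-5p, miR-380-5p, miR-666-5p, miR-667-5p and miR-673-5p had at most 10 counts in each progenitor library. They entered the test through libraries where they are higher, so their direction was partly set by the filter on low counts.

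Within the cluster, miR-382-5p measured 37.9, 42.9 and 65.5 CPM in progenitors and 215, 155 and 279 CPM in neurons (log2 2.17, SE 0.25, edgeR adjusted p = 1.43e-06). miR-434-5p measured 158, 167 and 258 CPM against 692, 941 and 638 CPM (log2 1.98, SE 0.21, edgeR adjusted p = 4.53e-07). miR-409-5p measured 28.8, 21.5 and 32.7 CPM against 102, 80.2 and 141 CPM (log2 1.96, SE 0.27, edgeR adjusted p = 1.07e-05). In each of these 3 the neuron libraries lay above all progenitor libraries. The most abundant member was miR-541-5p, with 691, 736 and 956 CPM in progenitors and 2255, 2299 and 2475 CPM in neurons. miR-134-5p, which acts on dendritic spines, rose by 1.34 (SE 0.25, edgeR adjusted p = 0.000243).

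Members of this cluster do not share 1 seed. Grouping tested miRNAs whose loci lie within 10000 bases of each other on 1 strand put 20 of the 22 tested members into 3 runs, each with as many seeds as tested miRNAs; miR-370-5p and miR-485-5p were in none of them. These were chr12:109572004-109594549 with 4 of 6 higher (median log2 1.29), chr12:109709065-109720044 with 7 of 8 (1.26) and chr12:109733781-109743452 with 6 of 6 (1.76). Chromosome 12 as a whole had 25 tested miRNAs with 20 higher and none lower in edgeR. Over the genome, 163 tested miRNAs had a locus in the reference, and those of them with a tested neighbour formed 28 groups. At least 2 members were called in 10 of the groups, always in 1 direction, where 56.4% of all tested miRNAs were called. The 3 runs above are among these 10. Whether neighbours changed together more than other miRNAs was not tested.

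Among miRNAs linked to proliferation, the miR-17-92 cluster and its paralogs, which act on cell-cycle and survival genes, had 11 tested members. In edgeR 5 fell and none rose, where 26.6% of all tested miRNAs fell and 29.8% rose. The median log2 change was -0.50, against -0.05 over all tested. All 11 were below 0 with TMM factors, whereas with library totals 2 were above 0 and 2 were called. The most abundant members, miR-20a-5p, miR-93-5p and miR-17-5p, were not called (log2 -0.39, -0.13 and -0.42). The seed family of miR-17 (AAAGUGC, 6 tested members) did not pass as a sum (log2 -0.32, SE 0.19, edgeR adjusted p = 0.157). Neuron replicate 3 had 1.28% of its counts in it, above all progenitor libraries (0.875% to 1.06%), and the other neuron libraries 0.832% and 0.552%.

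miR-25-5p, which lies within the replication gene Mcm7 on chromosome 5, fell from 118, 182 and 92.9 CPM to 35.3, 33.8 and 40.0 CPM (log2 -1.86, SE 0.27, edgeR adjusted p = 1.62e-05). miR-92a-1-5p had 35, 21 and 6 counts in progenitors and 6, 3 and 1 in neurons (log2 -3.73, SE 0.61, edgeR adjusted p = 6.23e-05). It entered the test through libraries where it is higher. The 3p arms of miR-25 and miR-92a were not analysed here. On the X chromosome, miR-106a-5p, miR-20b-5p and miR-18b-5p (chrX:52742159-52742563) fell by 0.74, 0.71 and 0.67. miR-92b-5p, made from a gene separate from these clusters, measured 371, 312 and 391 CPM against 82.1, 82.8 and 83.8 CPM (log2 -2.11, SE 0.20, edgeR adjusted p = 1.11e-07). miR-32-5p, which shares its seed with the 3p arms of the miR-92 family, fell from 146, 136 and 164 CPM to 52.8, 72.8 and 46.9 CPM (log2 -1.36, SE 0.22, edgeR adjusted p = 5.01e-05). For each of these 3 single miRNAs, miR-25-5p, miR-92b-5p and miR-32-5p, the populations did not overlap.

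In the miR-322 to miR-450 cluster on the X chromosome (chrX:53048044-53054327), 2 of 5 tested members fell and none rose in edgeR, against 26.6% and 29.8% of all tested miRNAs, and nothing is read from so small a count. miR-450b-5p measured 117, 108 and 164 CPM in progenitors and 12.4, 6.33 and 7.68 CPM in neurons (log2 -3.77, SE 0.29, edgeR adjusted p = 1.06e-08), and miR-351-5p fell by 0.85 (SE 0.17, edgeR adjusted p = 0.000334). Their neighbours miR-450a-5p (-0.19), miR-503-5p (-0.18) and miR-322-5p (0.54) did not pass. In the miR-15/16 list, which acts on cyclins, 2 of 5 also fell, a count as small against the same 26.6%. These were miR-15b-5p, by 1.07 (SE 0.23, edgeR adjusted p = 0.000766) and miR-15a-5p, by 0.60 (edgeR adjusted p = 0.0215), and the median was -0.38.

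The miR-99/100 and miR-125 list had 2 falls in 5 (26.6% of all tested), those of miR-100-5p and miR-99a-5p, and a median of -0.14 that became 0.05 with library totals. None of the 5 members of the miR-30 list was called in edgeR; the median was -0.06 with TMM factors and 0.12 with library totals, where 1 was called. The pluripotency list (miR-290 to miR-295, miR-302 and miR-367) had 10 rows, all of 5p arms, of which 2 had a count and none could be tested. The summed level was at most 2.62 CPM in progenitors and 3.84 CPM in neurons, near that of 3 counts. The 3p arms of this list were not analysed here, so the low values do not show that the miRNAs were absent.

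**Figure D5:**
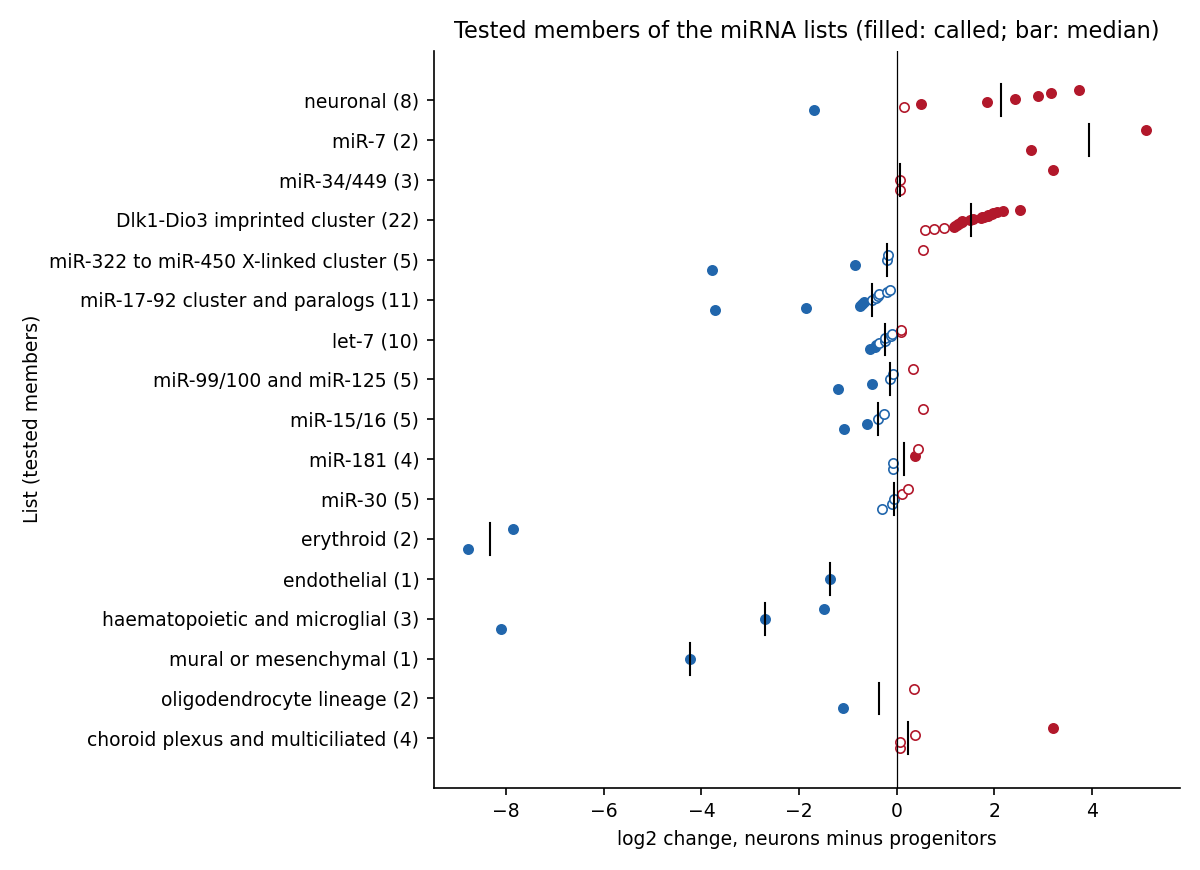
Log2 change, neurons minus progenitors, of each tested member of the miRNA lists and marker lists (number tested in brackets); filled points are called, and vertical bars are medians. All 22 members of the Dlk1-Dio3 cluster lie above 0, the miR-17-92 list lies below 0 with TMM scaling, and the erythroid, endothelial, haematopoietic and mural markers lie below 0.

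Marker miRNAs of blood and vessel cells were higher in the progenitor libraries. The erythroid markers miR-451a and miR-144-5p summed to 260 to 354 CPM in progenitors and 0 to 2.31 CPM in neurons. miR-451a had 390, 298 and 183 counts in progenitors and 5, 0 and 3 in neurons (log2 -7.86, SE 0.37, edgeR adjusted p = 2.62e-11). miR-144-5p had 45, 48 and 16 counts in progenitors and was at 0 in every neuron library, at least 18.9-fold lower (floor of 3 counts in each). All 3 tested haematopoietic and microglial markers fell (summed 47.1 to 60.3 CPM against 8.44 to 9.01 CPM), where 26.6% of all tested miRNAs fell. Their defining member miR-142a-5p went from 34, 20 and 14 counts to 0 in all neuron libraries, at least 11.8-fold lower. miR-144-5p, miR-142a-5p and miR-146a-5p had at most 3 counts in each neuron library, and miR-451a at most 5. All of these entered the test through libraries where they are higher. The endothelial marker miR-126a-5p, the only one of 3 rows with a count, summed to 18.4 to 26.2 CPM against 5.28 to 12.3 CPM (log2 -1.36, SE 0.31, edgeR adjusted p = 0.00123).

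The mural and mesenchymal markers summed to 439 to 580 CPM in progenitors and 19.2 to 36.4 CPM in neurons. The tested one was miR-143-3p, the smooth-muscle miRNA, with 429, 559 and 565 CPM against 34.2, 32.7 and 11.5 CPM (log2 -4.23, SE 0.28, edgeR adjusted p = 1.89e-09). The oligodendrocyte markers summed to 47.0 to 73.3 CPM in progenitors and 41.2 to 49.9 CPM in neurons, which overlap. Of the 2 tested, miR-219a-5p fell by 1.10 (SE 0.29, edgeR adjusted p = 0.00419) and miR-338-5p was not called (log2 0.35, edgeR adjusted p = 0.302). Choroid plexus and multiciliated markers summed to 87.7 to 177 CPM in progenitors and 246 to 296 CPM in neurons, and of the 4 tested 1 rose, miR-449a-5p, which the list shares with the miR-449 pair above. miR-204-5p, a defining choroid plexus miRNA, measured 26.5, 78.7 and 2.62 CPM in progenitors and 48.4, 66.5 and 25.4 CPM in neurons and was not called (log2 0.37, edgeR adjusted p = 0.640). All 5 epithelial rows, each a 5p arm, were at 0 in the 6 libraries. The 3p arms of these miRNAs were not analysed here, so the values do not show that the miRNAs were absent.

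Among the 10 largest falls that reached 100 CPM with separate ranges, miR-451a and miR-143-3p are themselves on these marker lists. On none of the lists are miR-486-5p, miR-450b-5p, miR-378c, miR-92b-5p, miR-378d, miR-25-5p, miR-129-5p and miR-32-5p. miR-486-5p, which is made from the erythrocyte ankyrin gene Ank1 and is abundant in red cells and muscle, measured 777, 810 and 476 CPM in progenitors and 102, 105 and 83.0 CPM in neurons. It fell 7.10-fold (log2 -2.83, SE 0.23, edgeR adjusted p = 1.82e-08), less steeply than miR-451a, and in neurons it remained above 80 CPM where the erythroid markers summed to at most 2.31 CPM. The part of blood and vessel cells in the falls of miR-451a, miR-143-3p, miR-486-5p and the other called miRNAs was not tested. miR-378c (587, 605 and 641 CPM against 107, 145 and 105 CPM) and miR-378d (183, 187 and 195 CPM against 39.1, 56.5 and 46.9 CPM) both fell without overlap, with a log2 change of -2.36 for miR-378c. Their sequences differ by the substitutions A6C and C21G, counted from the 5′ end of miR-378c, and counts of miR-378d were 30.4% to 31.3% of those of miR-378c in progenitors and 36.6% to 44.9% in neurons.

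The pool was dominated by few miRNAs in both populations. Over the 6 libraries, the 10 most abundant miRNAs by mean were miR-9-5p, let-7i, let-7f, let-7g, let-7c, miR-99a, miR-99b, miR-100, miR-30a and miR-26a (all 5p). In neurons miR-7a-5p had more counts (96604, 39141 and 26829) than miR-100-5p (35018, 17829 and 7987), so the order differed between libraries. Ranked within each library, the 10 most abundant held 86.8%, 87.3% and 87.8% of the counts in progenitors and 86.0%, 86.4% and 83.7% in neurons. The difference of -1.94 percentage points, without overlap, reached the smallest p that the exact two-sided permutation test allows (p = 0.1), and was -1.10 without neuron replicate 3. At the depth of the smallest library, 307, 299 and 309 miRNAs were expected with a count in progenitors and 319, 315 and 330 in neurons (exact permutation p = 0.1). At a limit of 1 CPM the numbers overlapped, with 277, 255 and 309 in progenitors and 289, 300 and 280 in neurons (exact permutation p = 0.6).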

How the data were processed

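The deposited table holds whole-number read counts per miRNA and library, as its values show. It was made by the authors and is neither normalised nor pooled. The submitters' processing notes name bcl2fastq 1.8.2, DESeq2 and mm10, with no roles. The aligner, the counter and the miRNA release were not given in the sources used here. Per the labels' protocols, total RNA from a column extraction went into NEBNext Small RNA libraries, run on a HiSeq. Adapter ligation can favour some sequences, so shares and CPM of different miRNAs compare their counts, not their amounts.

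Of 1433 rows, 222 without a database identifier were left out. The row with the largest total was kept per mature name. Names with at least 50 counts that differed by at most 2% were joined (7 groups, 14 names), of which miR-486a-5p with miR-486b-5p is written miR-486-5p. Counts were summed by seed (bases 2 to 8). Loci came from the RefSeq table, and host genes on the same strand from GENCODE M21, both GRCm38 (mm10).

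edgeR 4.0.16 (filterByExpr, TMM, glmQLFit, glmQLFTest; R 4.3.3) was fitted to all 9 libraries for miRNAs and for families, with Benjamini-Hochberg adjustment over everything tested and a threshold of 0.05. Common biological coefficients of variation were 0.161 and 0.168. Shares used raw totals, and CPM used TMM-scaled totals. Tested miRNAs held 99.96% or more of the counts. The code was tested on simulated data.

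Totals per library were 1323826, 1082957 and 821155 in progenitors and 3856484, 1879160 and 1067320 in neurons. Floors of 3 counts (0.778 to 3.65 CPM) and Wilson intervals cover counting error only. DESeq2 1.42.0, other scalings, no filter, other families and leaving out each library were the alternatives. Named miRNAs were the 10 most abundant, the 10 largest rises and falls among those called that reached 100 CPM in either population with separate ranges, the 5 largest gains and losses of share, members of the 6 families gaining and losing most, families with members called both ways, miR-486-5p, and list members. The members and lists were chosen with earlier results of these data known.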

Additional observations from a re-analysis of the deposited data

Results flagged for a closer look

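Of the 222 table rows without a database identifier, which entered no comparison, 79 had over 3 counts in at least 1 of the 6 libraries, above what a count of 0 allows. In all 6 libraries 3 of them did so, in all 3 neuron libraries 6, and in all 3 progenitor libraries 7. Together the rows made up 0.118% to 0.252% of a library's total. No sequence or name ties them to a miRNA in the table, so none is described.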

How the results depend on the processing

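Over the scalings, filters, tests and left-out libraries tried, 39 of 53 named miRNAs and families kept their direction and their side of the threshold, and 14 did not. The number of called miRNAs was 99 (upper quartile) to 125 (no filter on low counts), and 99 to 108 when 1 library was left out; called families numbered 91 to 111, and 86 to 98 when 1 library was left out. At 2-fold or more, 32 miRNAs were lower in neurons in place of 50. DESeq2 called 103 miRNAs, 92 of them called by edgeR. Families by the number in the name, an alternative chosen after seeing the data, gave 98 calls. The pool moved between seed families was 3.91% to 5.34% when 1 library was left out and 11.3% without miR-9-5p.

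Log2 changes that turned sign were all near 0. With library totals they were 0.093 for let-7c-5p, 0.12 for miR-30a-5p and 0.11 for miR-99b-5p, and with totals without miR-9-5p 0.0058, 0.042 and 0.029. DESeq2 gave 0.016 for miR-30a-5p and 0.0026 for miR-99b-5p. With 1 library left out, let-7c-5p ranged from -0.23 to 0.034 (above 0 without progenitor replicate 2 or neuron replicate 2), miR-30a-5p from -0.15 to 0.046 and miR-99b-5p from -0.14 to 0.010 (both above 0 without neuron replicate 3). Upper-quartile scaling gave 0.066 for the family of miR-9-5p and 0.058 for the family of let-7i-5p. The family of miR-30a-5p was at -0.051 with RLE factors and ranged from -0.026 (without neuron replicate 1) to 0.11 with 1 library left out. The cause was not tested.

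Same-numbered libraries did not deviate together (correlations -0.06, -0.07 and -0.07). A replicate block gave 108 called miRNAs, 105 of them called without the block, and 95 called families; the miR-9 family then missed the threshold (adjusted p = 0.0662). Depth limits miRNAs under about 4 CPM in the shallowest library.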

Other observations

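The neighbours miR-182-5p and miR-183-5p on chromosome 6, known from sensory organs and retina, were chosen after their values were seen. miR-183-5p measured 3.79, 4.09 and 5.24 CPM in progenitors and 52.5, 43.8 and 47.6 CPM in neurons (log2 3.47, SE 0.34, edgeR adjusted p = 1.92e-07), and miR-182-5p rose by 3.02 (SE 0.33, edgeR adjusted p = 6.90e-07). All neuron libraries were above all progenitor libraries for miR-183-5p.

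Also chosen after their values were seen, the neighbours miR-27a-5p and miR-24-2-5p on chromosome 8 fell. miR-27a-5p was at least 20.6-fold lower in neurons (edgeR adjusted p = 8.79e-07), and miR-24-2-5p fell too (log2 -1.85, SE 0.26, edgeR adjusted p = 1.42e-05). On the X chromosome, 10 of 20 tested miRNAs fell and 3 rose, where 26.6% of all tested miRNAs fell and 29.8% rose, with a median log2 change of -0.45.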
